A study of Mus musculus with 25 samples.

Results

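Gonadal white adipose tissue of C57BL/6J mice, called B6 here, was compared with brain, liver and gastrocnemius muscle of the same strain. The 3 gonadal fat arrays and the 9 arrays of the other tissues were taken by strain and tissue label, and make up 12 of the 25 arrays of the series. Gonadal fat, brain, liver and gastrocnemius each have 3 B6 arrays. The remaining arrays come from the congenic strain B6.C-D7Mit353, whose labels describe it as lean and homozygous and which carries the B6 background; 3 congenic fat arrays and 9 of its other tissues were used to repeat the comparison. The labels give no age, sex, diet or treatment. Each array carried cRNA of 1 sample, made from TRIzol-extracted RNA, marked with digoxigenin and detected by its chemiluminescence. The design text lists 1 of the 3 B6 fat samples with the livers, but both its title and its source name gonadal fat, and it is counted as fat. The design text calls the triplicates biological, and some title numbers recur in several tissues and may name the same animal.

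White adipocytes store triglyceride in a single large lipid droplet coated by perilipins, take up fatty acids through transporters and binding proteins, and release leptin and other hormones. Their identity depends on the nuclear receptor PPARγ and on C/EBP factors. In male mice the gonadal pad lies against the epididymis, the duct in which sperm mature and whose epithelium secretes lipocalins, beta-defensins and antioxidant enzymes under androgen control. A dissected pad can also hold mesothelium, vessels, stroma and immune cells. All arrays measured whole tissue, in which fewer cells of a type and less RNA per cell cannot be told apart.

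A probe counts as detected where its signal to noise ratio reaches 3. The 21134 probes that reached it on 3 or more of the 12 arrays entered the test. The fat arrays detected 17547 to 18236 probes, the brain arrays 17049 to 17925, the liver arrays 13279 to 14544 and the gastrocnemius arrays 13115 to 14371. Across probes, which are not independent, fat arrays correlated with each other at 0.94 to 0.969 and with arrays of other tissues at 0.64 to 0.765. Values below are log2 signals on a common scale, differences are fat minus the other tissue, and adjusted p-values are from limma with Benjamini-Hochberg adjustment over all tested probes. Against the mean of the other tissues, 4923 probes were higher in fat (23.3%) and 4594 lower (21.7%). In fat 1502 probes were higher than in each of the 3 other tissues (7.11%) and 600 lower than in each (2.84%). Counted by gene, with 1 probe for each, 941 of 10721 tested genes were higher than in each (8.78%). The list shares below are of measured genes, some of which were not tested. Of the 1502 probes, 574 (2.72% of tested probes) exceeded each tissue by at least 2 log2 units, or 4-fold, and are called fat-enriched. They represent 352 named genes and 213 probes without a gene name here. The gene just inside this limit was Txnip, at 4.01-fold over the highest other tissue, and just outside lay Lrrc1 at 3.97-fold. Of the 352 fat-enriched genes, 99 were detected on no other B6 array. Those 99 passed the filter through the fat arrays alone, so they had to differ, and they stay in the counts below. A fold against a tissue that detected the probe on none of its 3 arrays is written "at least", with the lowest detected signal of each array standing in where it was higher; it carries the error of the fit.

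Genes of the adipocyte as a group were high in fat, most uniformly against brain. Of 68 measured genes among the 83 on the adipocyte list, 36 were higher in fat than in each other tissue (52.9%, against 7.11% of tested probes) and 26 were fat-enriched. The median difference to the mean of the other tissues was 3.01 over the list and 0.025 over all tested probes. Against brain 62 of 67 tested genes were higher in fat and 1 lower, where 25.1% and 24.1% of tested probes were called. Against liver 42 were higher and 14 lower (24.6% and 17.8% of probes), and against gastrocnemius 49 were higher and 5 lower (23.8% and 19.3%). On 4 of the 68 genes the filter was passed through the fat arrays alone, so these had to differ. With arrays centred on their median in place of quantile normalization, 32 of the 36 kept the call, and Angptl4, Elovl6, Mgll and Plin4 lost it. The fat-enriched count of 26 fell to 20 under that centring, and also to 20 without B6 fat replicate 2 with the filter reapplied. Adipoq, Cfd, Lpl and Lipe have no probe named here and were not analysed.

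Lep, the gene of the satiety hormone leptin, lies on chromosome 6. The 250 bases before its start are printed because they hold a site of the C/EBP form TTGCNNAA, in capitals, that begins 55 bases upstream (RefSeq, GRCm38.p6, chr6:29059971-29060220, plus strand).
Lep: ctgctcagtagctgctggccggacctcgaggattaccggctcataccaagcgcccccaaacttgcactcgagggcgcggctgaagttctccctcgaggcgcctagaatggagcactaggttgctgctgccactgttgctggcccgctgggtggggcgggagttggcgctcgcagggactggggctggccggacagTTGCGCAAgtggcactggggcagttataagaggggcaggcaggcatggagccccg
Its log2 signal was 14.98, 13.21 and 13.99 on the fat arrays and 7.09 to 8.69 (median 7.71) on the 9 others. All 3 fat arrays lay above every other array, and it was detected on none of those. Fat exceeded gastrocnemius, the nearest tissue, at least 67.1-fold. Lep is 1 of the 4 genes that entered the test through the fat arrays alone, as are Retn, Ffar4 and Tshr. Nrg4, a secreted growth factor gene, was at 15.33, 14.54 and 14.38 in fat and 12.07 ± 0.39 in liver, the nearest tissue (SD, n = 3). Angptl4, an inhibitor of lipoprotein lipase, was higher by 0.83 ± 0.21 over liver and by 6.09 over brain. Retn, the resistin gene, was at 10.39, 10.96 and 10.38 in fat and was detected nowhere else. Of 7 measured hormone and secreted protein genes, 5 were higher than in each tissue, the fifth being Sncg. Rbp4, the plasma retinol carrier, was higher in fat than in brain and gastrocnemius and lower than in liver by 16-fold, and Apln was detected on no fat array.

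**Figure D1:**
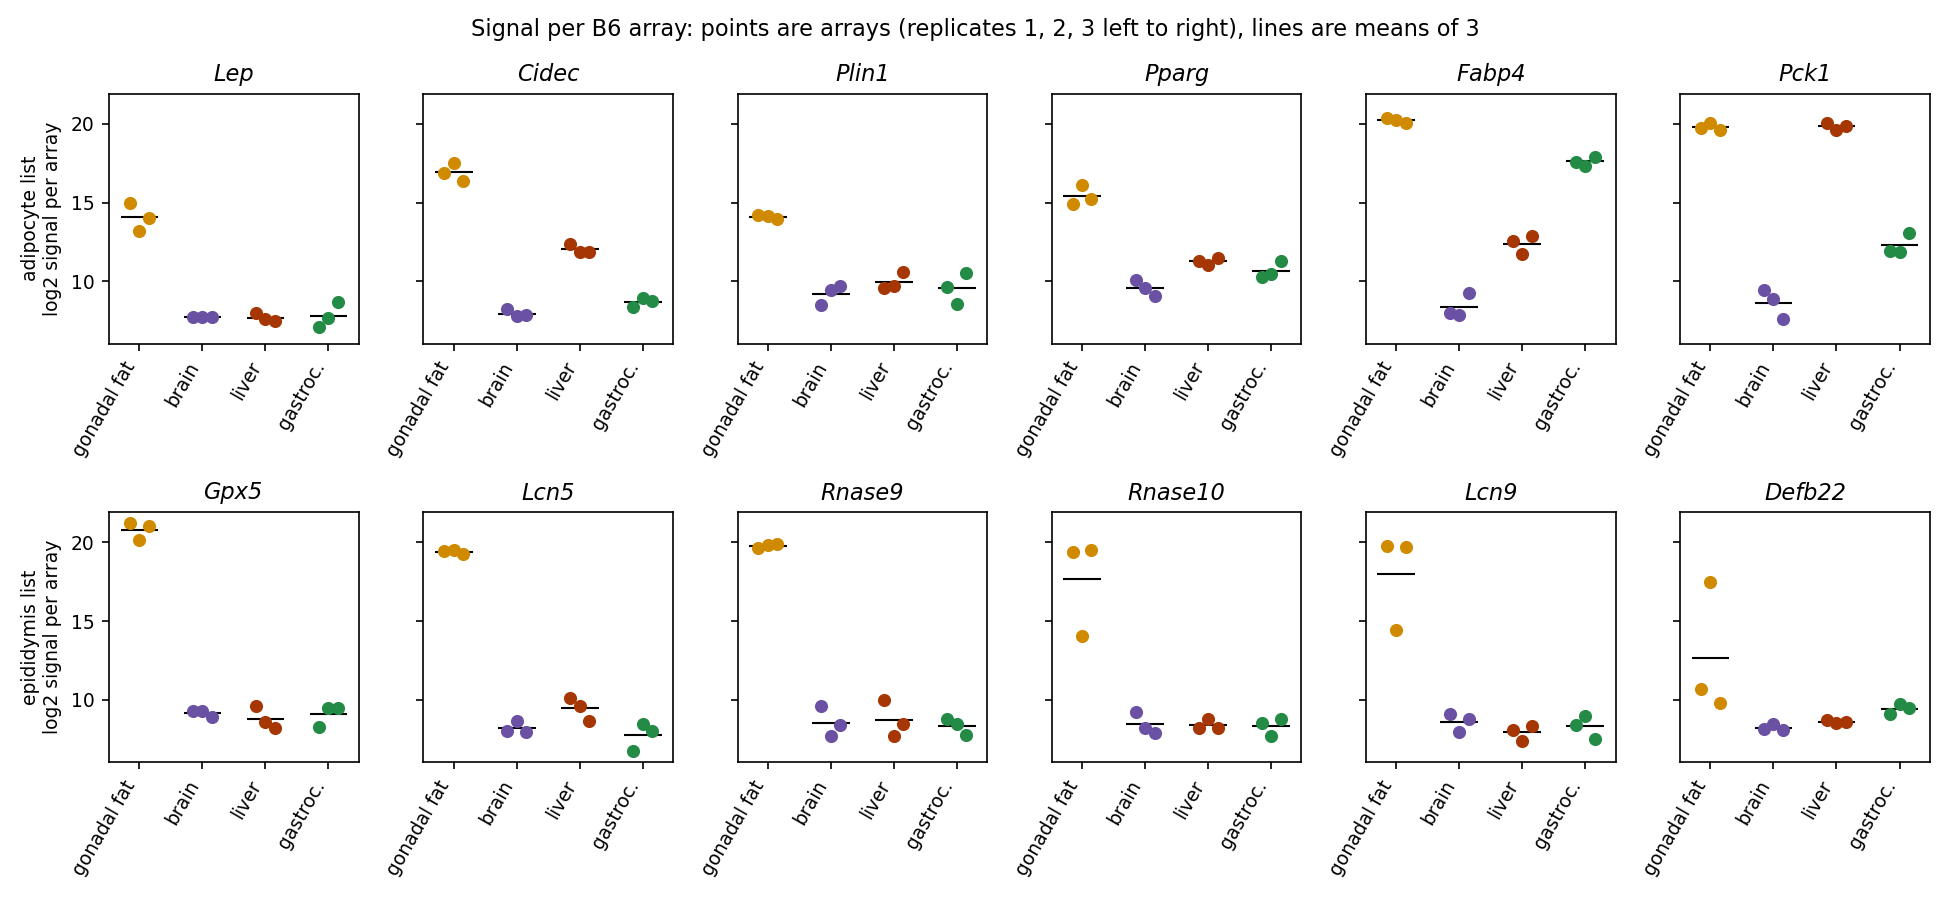
Log2 signal of 6 adipocyte genes (top) and 6 epididymis genes (bottom) on each B6 array, by tissue with gonadal fat at the left; points are arrays and lines are means of 3. Lep and Gpx5 are high on all 3 fat arrays alone, the fat and liver arrays of Pck1 overlap, and Rnase10 and Lcn9 are several units lower on fat replicate 2, where Defb22 is higher.

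Droplet proteins showed both patterns, enriched in fat or shared with liver. Cidec, which enlarges lipid droplets, was at 16.87, 17.54 and 16.40 in fat, 12.38, 11.88 and 11.88 in liver and not detected in brain or gastrocnemius. The fat arrays stood clear of the liver ones by 4.89 ± 0.32 log2 units (29.7-fold, adjusted p = 1.61e-08). Plin1, the perilipin that guards the droplet of the fat cell, was at 14.24, 14.13 and 13.97 in fat and 8.51 to 10.56 (median 9.64) elsewhere. Its fat arrays did not overlap the others, and fat exceeded liver 18.1-fold. Pnpla2, the first lipase of triglyceride breakdown, was higher than in gastrocnemius by 2.05 and than in liver by 3.05. Plin4 and Mgll, a monoglyceride lipase, were also higher than in each tissue, with differences to the nearest of 1.44 and 0.56. Plin2, the perilipin of many cell types, and G0s2, an inhibitor of Pnpla2, were lower in fat than in liver, by 1.68 and 2.25 log2 units. Ces1d, a carboxylesterase, was at 19.73, 20.04 and 19.49 in fat and 18.77, 19.05 and 19.05 in liver, a difference of 0.80 ± 0.499 that did not pass (adjusted p = 0.221), though fat exceeded brain by 11.53. Cidea, a droplet protein abundant in brown fat, was detected on no fat array and on 3 of 3 brain arrays.

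Of 5 measured genes of fatty acid uptake, 4 were higher in fat than in each tissue. Fabp4, the fatty acid binding protein of adipocytes, was at 20.38, 20.23 and 20.09 in fat and 17.59, 17.34 and 17.91 in gastrocnemius. That is 6.14-fold over muscle, 231-fold over liver and 3749-fold over brain. Cd36, a fatty acid transporter shared by fat and muscle, followed the same order, at 19.29 ± 0.29 in fat, 16.27 ± 0.56 in gastrocnemius, 13.30 ± 0.73 in liver and 8.64 ± 0.38 in brain (SD, n = 3 each). Slc27a1, another transporter, and Aqp7, a glycerol channel, exceeded gastrocnemius by 2.81 and 2.88. Fabp5 did not pass against any tissue, with 0.04 ± 0.48 against their mean.

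Synthesis of fatty acids and triglyceride was split, with 6 of 16 measured genes higher than in each tissue and 7 lower than in liver. Scd1, the desaturase that makes oleic acid, was at 19.54, 19.31 and 19.68 in fat and 16.29, 17.53 and 17.40 in liver, 5.41-fold higher. Acly and Fasn, which make acetyl-CoA and palmitate, exceeded liver by 3.25 ± 0.35 and 3.26 ± 0.25. Only 3 of the 16 genes were fat-enriched, so a difference to liver given here is not always the one to the nearest tissue. Thrsp, Dgat1 and Elovl6 were also higher than in each, by 2.96, 1.72 and 1.64 log2 units or more. Pck1, which supplies glycerol phosphate in fat and glucose precursors in liver, was at 19.76, 20.09 and 19.58 in fat and 20.04, 19.62 and 19.89 in liver, and the arrays of the pair overlapped. The difference was -0.04 ± 0.39 (adjusted p = 0.953), while fat exceeded gastrocnemius by 7.54. Agpat2, Dgat2, Gpd1, Me1, Pcx, Acss2 and the carbohydrate-response factor gene Mlxipl were lower in fat than in liver, by 0.73 (Pcx) to 2.41 (Mlxipl) log2 units.

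Of 8 transcription factor genes, all 8 were higher in fat than in brain, and Pparg and Srebf1 were higher than in each tissue. Pparg, the nuclear receptor that directs adipocyte formation, was at 14.89, 16.12 and 15.23 in fat and 9.06 to 11.49 (median 10.46) on the 9 others. No other array reached the lowest fat array, and fat exceeded liver 17.6-fold (adjusted p = 4.36e-07). Cebpa, its partner factor, differed from liver by -0.46 ± 0.33 (adjusted p = 0.296) and was higher than in gastrocnemius by 3.73. Ebf1 and Ebf2, factors of fat cell precursors, were higher than in brain and liver and did not pass against gastrocnemius. Cebpb, Klf15 and Nr1h3 were lower in fat than in liver, by 1.08, 2.44 and 1.16 log2 units.

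Among 9 receptor and signalling genes, 6 were higher than in each tissue. Trarg1, which aids the traffic of the insulin-responsive glucose transporter, was at 15.24, 14.76 and 14.503 in fat and 7.27 to 10.84 (median 8.81) elsewhere. The transporter gene itself, Slc2a4 or GLUT4, was at 11.91, 12.20 and 12.26 in fat and 16.15, 15.81 and 16.26 in gastrocnemius, lower in fat by 3.95 ± 0.37. Fat nevertheless exceeded liver by 4.02 for it. Ffar4, a fatty acid receptor, and Tshr, the thyrotropin receptor, were detected on the 3 fat arrays and on no other, at 11.68, 10.96 and 11.40 and 11.71, 12.01 and 11.45. Hcar1 and Hcar2, receptors of lactate and ketone bodies that restrain lipolysis, exceeded liver by 2.78 and 1.70, and Ptger3 exceeded gastrocnemius by 1.77.

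Genes of caveolae, the small pits that cover the adipocyte surface, and other membrane and abundant adipocyte proteins were grouped, and 8 of 11 were higher than in each tissue. Aoc3, an amine oxidase of the cell surface, had the largest difference to the mean on the adipocyte list, at 8.11 ± 0.25. Its log2 signal was 18.38, 19.04 and 18.41 in fat and 13.24, 13.13 and 13.15 in gastrocnemius, the nearest tissue. Cav1 and Cav2, the coat proteins of caveolae, exceeded gastrocnemius by 3.20 and 3.33, and Cavin1 differed by -0.39 ± 0.48, which did not pass (adjusted p = 0.555). Adig, a small adipocyte protein gene, was at 15.63, 15.78 and 15.13 in fat, 13.3-fold over gastrocnemius. Car3, a carbonic anhydrase abundant in fat, muscle and liver, was at 20.20, 20.11 and 20.11 in fat, 18.52, 17.73 and 17.85 in gastrocnemius and 15.13, 16.93 and 16.38 in liver. Fat was 4.29-fold higher than muscle for it.

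**Figure D2:**
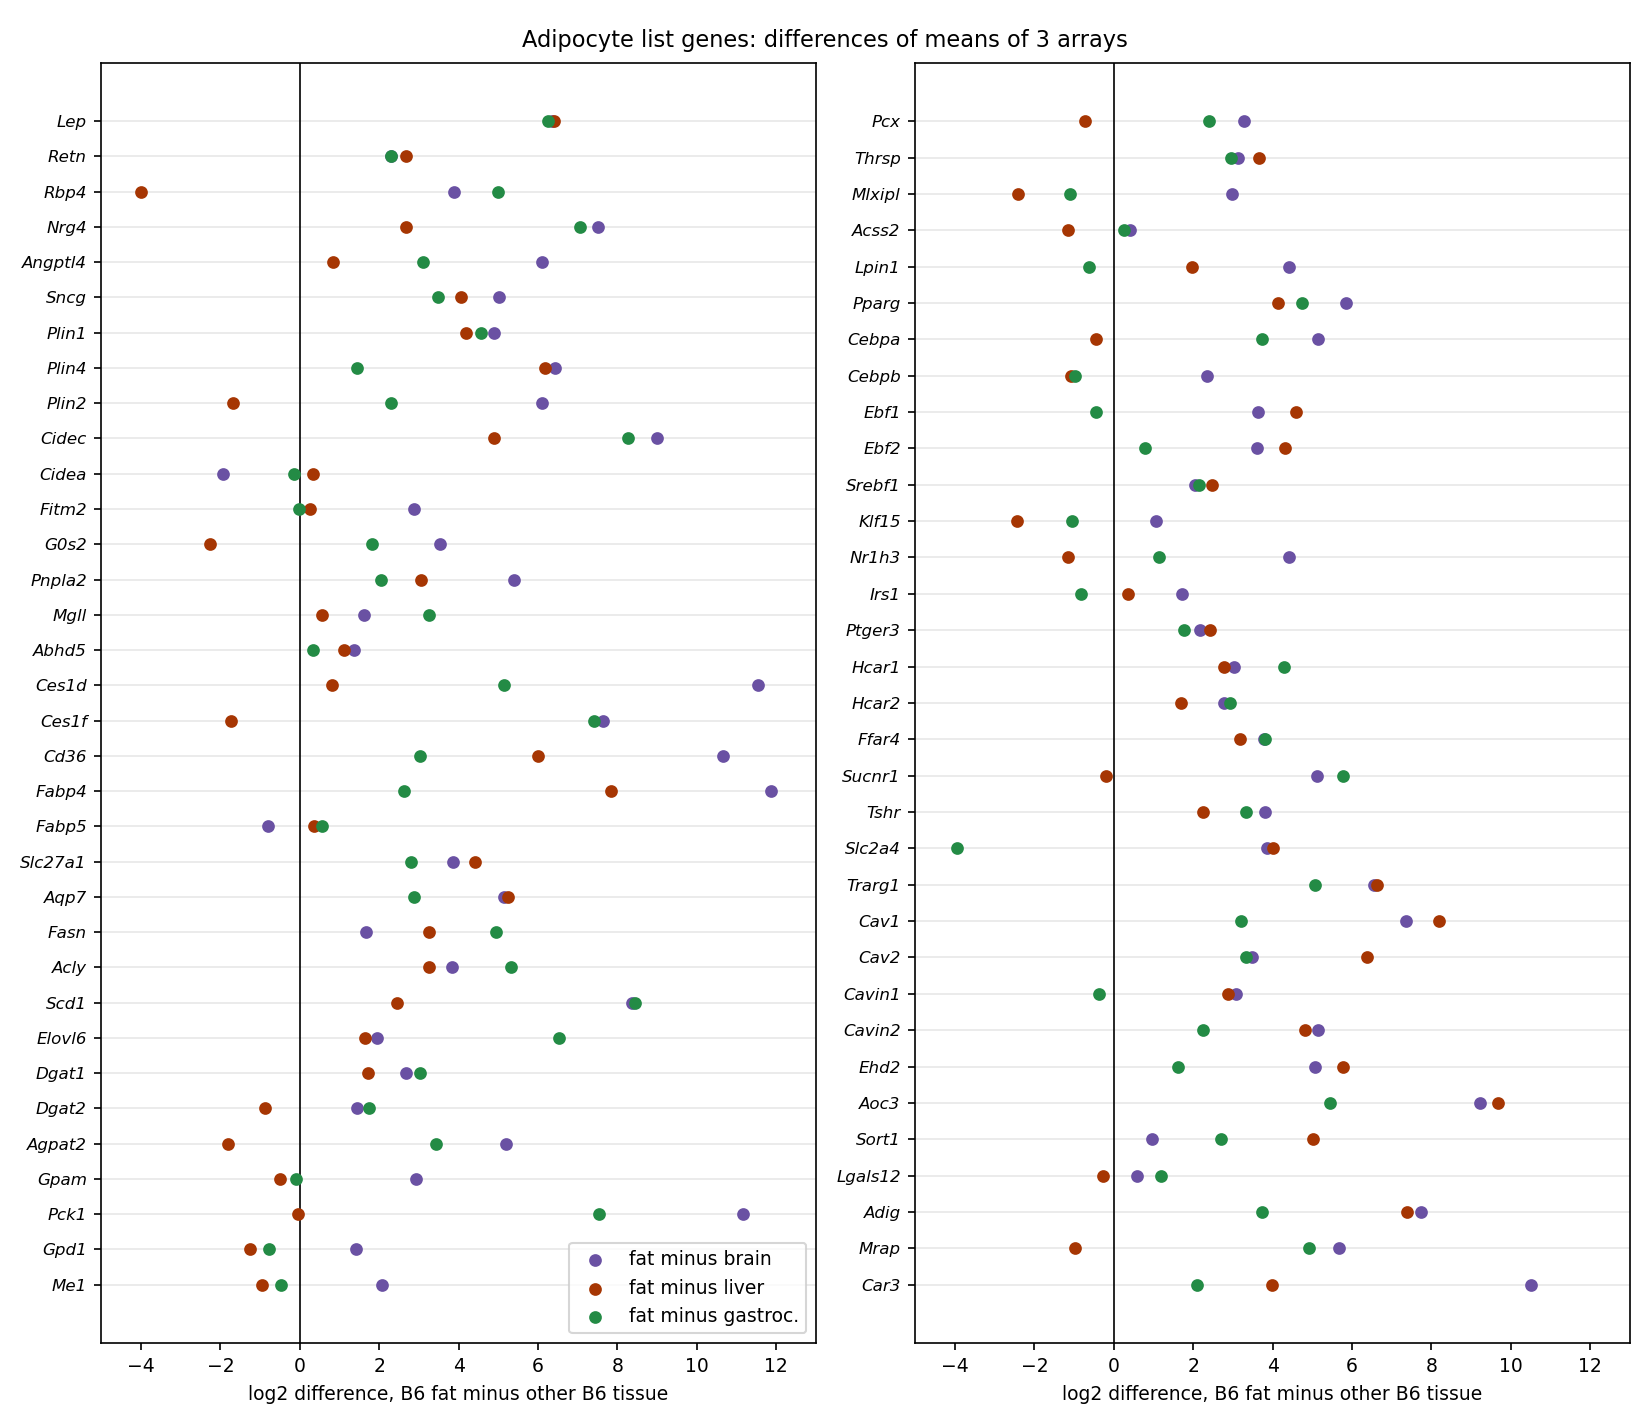
Log2 difference of B6 fat to each other B6 tissue for the 67 tested adipocyte genes, in the order of their roles from hormones (top left) to membrane proteins (bottom right); points are differences of means of 3 arrays. Points left of 0 are mostly those against liver, and Slc2a4 lies at -3.95 against gastrocnemius.

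Genes of brown and beige adipocytes, which burn fat for heat, gave 0 of 10 measured genes higher in fat than in each tissue by limma. The share over all tested probes was 7.11%, so a count of 0 in 10 genes is near it. Higher than in brain, liver and gastrocnemius were 2, 1 and 1 of the list genes (25.1%, 24.6% and 23.8% of tested probes). Of the 8 tested genes, 7 were lower than the mean of the other tissues (21.7% of tested probes). Ucp1, the uncoupling protein, was detected on none of the 12 arrays. Ppargc1a was lower in fat than in each tissue, at 10.46, 10.98 and 10.63 in fat and 11.45 to 13.97 (median 12.77) elsewhere. Elovl3 and Zic1 were detected on no fat array, and Cox7a1 was lower than in gastrocnemius by 8.09 log2 units.

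The epididymis list holds 70 genes, of which 28 were measured, with 6 of 26 beta-defensins and related genes and 6 of 19 cystatins and protease inhibitors among them. Of these 28, 25 were higher in fat than in each tissue (89.3%, against 7.11% of tested probes), and all 25 were fat-enriched. The median difference to the mean of the other tissues was 8.04, on measured values and also with each undetected tissue at its bound. On 9 of the 28 the filter was passed through the fat arrays alone, so these had to differ, and they are included in the count and the median. Like the other lists, this one was drawn up with earlier results of these data known, so its share is not an independent test. All 3 fat arrays lay above all 9 others for 26 of the 28 and for 9.26% of tested probes. When a fat array is left out and the filter reapplied, probes detected on the fat arrays alone can no longer reach 3 arrays, so 9 of the 25 genes drop from the test each time and 16 remain called without B6 fat replicate 2, or 17 without replicate 1 or 3, 1 gene more being called in those. With the tested probes held as on 12 arrays, an alternative added after that was seen, the counts were 25, 26 and 26. For the adipocyte list the lowest such count was 28 with the filter reapplied and 33 with the probes held.

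Ranked by the measured difference to the mean of the other tissues, which often includes tissues that did not detect the gene, the first 20 fat-enriched genes were taken. Of these, 11 are on the epididymis list and none on the adipocyte list. Gpx5, a secreted glutathione peroxidase of the epididymis, was at 21.21, 20.15 and 21.05 in fat and 8.17 to 9.62 (median 9.27) elsewhere. It was detected on no other B6 array, and fat exceeded brain at least 3209-fold. Adam7, a membrane protein passed to sperm, was also detected in fat alone and exceeded gastrocnemius, the nearest tissue, at least 3707-fold. Both genes entered the test through the fat arrays alone. The fat arrays of Adam7 were at 19.71, 18.76 and 19.87, against 6.92 to 7.81 (median 7.43) on the others. Rnase9 and Lcn5, a ribonuclease-family gene and a retinoid-binding lipocalin, were at 19.62, 19.81 and 19.92 and 19.47, 19.54 and 19.26. Defb21 and Spag11a, antimicrobial peptide genes detected in fat alone, exceeded brain, the nearest tissue, at least 455-fold and at least 770-fold. Defb20, of the same kind, exceeded liver 651-fold, and Spink8, a protease inhibitor gene, exceeded brain 231-fold. Lcn9, Rnase10 and Teddm1b complete the 11. Like Gpx5 and Adam7, the genes Defb21, Spag11a, Lcn9 and Teddm1b entered the test through the fat arrays alone, so all of these had to differ. The 9 on no list were Pate6, Cuzd1, the amino acid transporter gene Slc38a5, the beta-defensin genes Defb12 and Defb15, Cstdc2, Lypd8, the mucin gene Muc15 and the ammonium transporter gene Rhcg, which exceeded brain 191-fold.

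Some of these transcripts differed widely among the 3 fat arrays. The promoters of Lcn9 and Rnase10 are printed as a pair that moved together, with AGAACA or its reverse complement TGTTCT, the half-site of the androgen receptor element, in capitals (RefSeq, GRCm38.p6, 250 bases before the start, plus strand, chr2:25822903-25823152 and chr14:51007501-51007750).
Lcn9: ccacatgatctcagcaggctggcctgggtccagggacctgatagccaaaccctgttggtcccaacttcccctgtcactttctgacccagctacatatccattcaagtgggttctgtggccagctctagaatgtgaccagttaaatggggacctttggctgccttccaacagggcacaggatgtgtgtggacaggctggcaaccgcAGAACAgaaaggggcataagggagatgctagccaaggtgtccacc
Rnase10: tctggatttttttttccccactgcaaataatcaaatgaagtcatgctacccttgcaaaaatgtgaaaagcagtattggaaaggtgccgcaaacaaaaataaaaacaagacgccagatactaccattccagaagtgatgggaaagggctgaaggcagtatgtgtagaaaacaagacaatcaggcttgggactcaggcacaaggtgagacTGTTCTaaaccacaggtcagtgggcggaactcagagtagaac
Lcn9 was at 19.80, 14.45 and 19.73 on fat replicates 1, 2 and 3, and Rnase10 at 19.36, 14.05 and 19.54. Replicate 2 was the low array in both, though still above the 9 other arrays. It was lower than both other fat arrays by at least 2 log2 units for 9 of the 28 genes, which were Lcn9, Lcn10, Rnase10, Cst11, Defb20, Adam28, Teddm1a, Ly6g5b and Ly6g5c. For Defb22, Defb37 and Spint4 it was higher by as much, with Defb22 at 10.67, 17.496 and 9.79 and Spint4 at 14.18, 18.64 and 15.31. The same gaps were found for 0 and 0 of the 68 adipocyte genes, and for 103 and 68 of 10721 tested genes. Defb22 did not pass against gastrocnemius (adjusted p = 0.0678), and Wfdc15a and Teddm3 were the other 2 list members not higher than in each.

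The letters TTGCNNAA, on either strand, stand in the 250 bases upstream of 6 of 48 adipocyte genes with a promoter in the table (12.5%), 2 of 20 epididymis genes (10%) and 10.8% of 27025 genes. AGAACA stands in 5 of 48 (10.4%), 5 of 20 (25%) and 18.2%. The full androgen receptor element, which can overlap the half-site, was found in 0 of 48, 0 of 20 and 0.44%. The PPAR direct repeat was found in 0 of 48, 1 of 20 and 0.4%. Each match is a match of letters and not a shown site.

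Transcripts of haploid germ cells were also present in the fat samples. Of 17 measured genes 9 were higher than in each tissue (52.9%, against 7.11% of tested probes) and 8 were fat-enriched. On 5 of the 17 the filter was passed through the fat arrays alone, so these had to differ, and 8 were detected on no other B6 array. Prm2 and Prm1, the protamines that pack sperm DNA, were at 16.44, 15.57 and 15.74 and 15.63, 14.14 and 14.59 in fat. On the other arrays Prm2 ran from 7.49 to 9.34 (median 7.81). Tnp2, a transition protein, and Smcp, a sperm mitochondrial protein, exceeded liver, the nearest tissue, at least 67.3-fold and 21.7-fold. The mean log2 signal of the list was 12.55, 10.94 and 11.65 on fat replicates 1, 2 and 3 and 8.02 to 8.81 elsewhere. Of 10 genes of seminal vesicle and vas deferens secretions, 2 could be tested. For 1 of the 2 the filter was passed through the fat arrays alone, so it had to differ. Svs2 alone was higher than in each tissue, at 9.98, 9.68 and 10.26 in fat. That is 10% of the list, near the 7.11% of tested probes, and is not read as a result on these tissues. Svs4 and Svs5 were detected on 2 of 3 fat arrays.

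**Figure D3:**
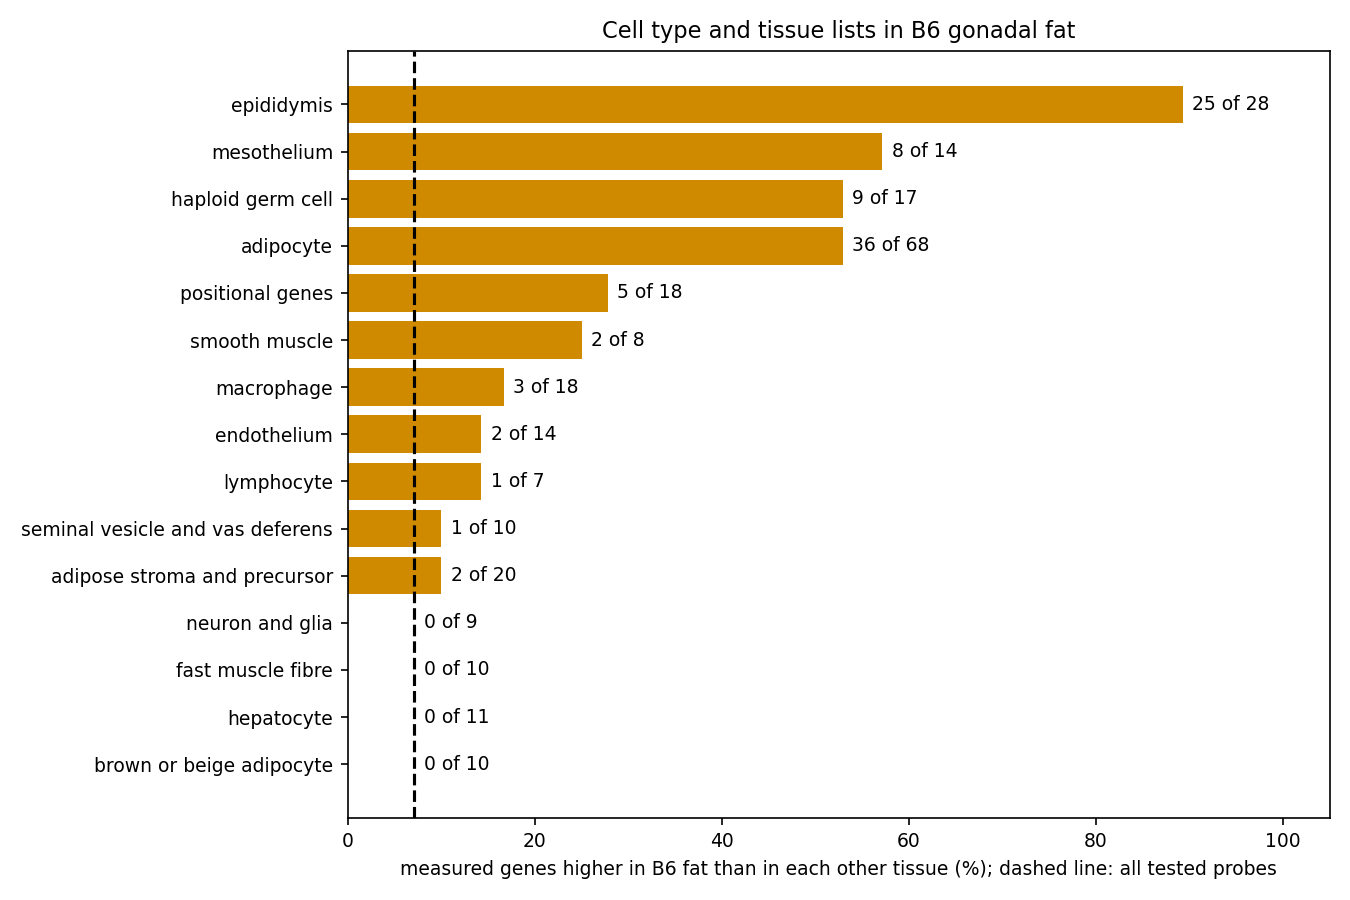
Share of the measured genes of each list (percent) that were higher in B6 fat than in each of the 3 other B6 tissues, with counts beside the bars; the dashed line marks the 7.11% of all tested probes. The epididymis list is at 25 of 28, the adipocyte list at 36 of 68, and the liver, brain and muscle lists at 0.

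Mesothelium, the cell sheet over the pad, gave 8 of 14 measured genes higher than in each tissue (57.1%, against 7.11% of tested probes). On 5 of the 14 the filter was passed through the fat arrays alone, so these had to differ. The epithelial keratin gene Krt7 was at 13.83, 14.09 and 14.47 in fat and 7.01 to 9.51 (median 8.25) elsewhere, and Krt19 at 12.06, 11.29 and 12.504. Rspo1, a WNT agonist, exceeded brain by 1.75. Krt8 and Krt18 did not pass against liver, with differences of 0.26 ± 0.27 and 0.08 ± 0.53. Msln, Upk3b and Wt1 were named after their values were seen. Msln exceeded brain 8.53-fold, Upk3b exceeded liver at least 10.5-fold and Wt1 exceeded gastrocnemius at least 7.64-fold. Epithelial keratins are also made by the epididymal duct, and the share of each source was not tested.

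In the stroma 2 of 20 genes (10%) were higher than in each tissue, near the 7.11% of all tested probes, Dpt at 15.90, 14.66 and 15.60 in fat and Postn at 14.91, 15.71 and 14.77, whereas the collagen gene Col3a1 was at 18.48, 18.52 and 18.70 in fat and 16.77, 19.19 and 16.26 in gastrocnemius. Of 18 macrophage genes, 3 (16.7%) were higher than in each, which were Retnla, Cd14 and Cd163. Retnla, a product of alternatively activated macrophages, was at 18.11, 16.70 and 17.22 in fat and 14.95 ± 0.54 in gastrocnemius (SD, n = 3). Lyz2 and Lyz1, the lysozyme genes, did not pass against gastrocnemius, where replicate 2 stood apart. The mean log2 signal of the macrophage list was 13.61, 13.14 and 13.15 on the fat arrays, and 11.99, 14.10 and 11.21 on gastrocnemius replicates 1, 2 and 3. Without gastrocnemius replicate 2 the counts were 8 of 18 macrophage and 4 of 20 stroma genes. Both stroma calls were lost without fat replicate 1 or 3 and without gastrocnemius replicate 1 or 3, each time leaving 0 of 20. Postn alone was lost without fat replicate 2, brain replicate 3 or any liver replicate, with no filter, with no intensity trend and under median centring. Cd163 was lost without gastrocnemius replicate 1 and under median centring. Endothelium gave 2 of 14 (Cldn5 and the retinol-binding gene Rbp7) and smooth muscle 2 of 8 (Acta2 and Myh11). The lymphocyte list gave 1 of 7 (Ptprc), with 3 tested and Cd3e detected on none of the 12 arrays. For 1 of these 3 the filter was passed through the fat arrays alone, so it had to differ. Against 7.11% of tested probes, these small counts are values only and are not read as results on the cell types.

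Positional genes, which keep the body axis of a tissue, gave 5 of 18 higher than in each (27.8%, against 7.11% of tested probes). For 2 of the 18 the filter was passed through the fat arrays alone, so these had to differ. Pax8, a factor of the kidney and genital ducts, had the largest difference, at 14.74, 15.66 and 14.998 in fat and 8.32 to 10.66 (median 8.89) elsewhere. Hoxc8 was at 13.16, 12.53 and 12.66 and detected in no other tissue. Hoxd9 and Hoxa7 were detected on no brain or liver array, and Hoxa7 exceeded liver at least 83-fold. Hoxd9 and Hoxa7 differed from gastrocnemius by 0.81 and 0.37, which did not pass. Hoxa10 and Hoxc9 were lower in fat than in gastrocnemius, by 3.56 and 2.44 log2 units.

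Genes that mark the compared tissues were lower in fat than in their own tissue, which their choice as markers favours. All 11 hepatocyte genes were lower than in liver (17.8% of tested probes), with Ttr at 8.78, 9.41 and 9.07 in fat and 19.78, 19.31 and 19.58 in liver. All 8 tested neuronal and glial genes were lower than in brain (24.1% of tested probes). All 10 fast muscle fibre genes were lower than in gastrocnemius (19.3% of tested probes), with Pvalb at 11.56, 9.502 and 8.30 in fat and 20.56, 20.32 and 20.54 there. They varied among the fat arrays. The mean of the list was 12.83, 11.53 and 9.81 on replicates 1, 2 and 3, and 9.47 to 9.74 in brain. Acta1, skeletal actin, was at 17.56, 15.10 and 13.60 on them. Whether muscle RNA in the fat samples bears on differences to gastrocnemius was not tested.

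Lower in fat than in each tissue were 363 named genes. The fat arrays lay below all 9 others for 4.07% of tested probes. Slc38a3, a glutamine transporter gene, was at 8.45, 7.84 and 9.34 in fat and 11.63 to 17.23 (median 13.19) elsewhere. Its fat arrays lay below every other array, with a difference of -5.32 ± 0.30 to the mean. Got1, the cytosolic aspartate aminotransferase, was at 12.64, 12.16 and 12.86 in fat and 16.67 to 17.63 (median 16.84) on the others, again without overlap. St3gal5, which makes the ganglioside GM3, and Prkaa2, a catalytic subunit of AMP-activated kinase, were lower by 4.84 and 3.85 log2 units against the mean. The 10 lowest also held Abcb4, Mtfp1, Apoa4, Vtn, Adssl1 and the cadherin gene Cdh2, from -5.14 (Abcb4) to -3.69 (Cdh2).

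The comparison was repeated in the congenic strain, with the 24 arrays of both strains normalized together and 24120 probes tested. In congenic fat 4293 probes were higher than the mean of the other congenic tissues (17.8%) and 1069 higher than each (4.43%). Of the 574 probes fat-enriched in B6, all but 1 had a positive difference in the congenic, 517 were called and 367 were higher than in each tissue. Without congenic fat replicate 1, left out after its values were seen, 553 were called and 466 were higher than in each. Among all probes of that fit, 3823 were called higher and 1079 were higher than in each. A difference of this fat contrast between the strains was called for 0 probes by limma, with 1518 at an unadjusted p under 0.05 and a lowest adjusted p of 0.672. Without congenic fat replicate 2 the count was 1016, and without congenic fat replicate 3 it was 3.

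Congenic fat replicate 1 stood apart in its epididymal transcripts. Gpx5 was at 10.84, 21.14 and 18.39 on congenic fat replicates 1, 2 and 3, and 21.14, 20.08 and 20.98 on the B6 ones. Rnase10 was at 7.24, 18.79 and 15.39 on congenic fat replicates 1, 2 and 3, and 19.26, 13.91 and 19.47 on the B6 ones. On this array both were far below the other fat arrays, and the same held for most of the list. It lay at least 2 log2 units below the mean of the B6 fat arrays for 24 of 28 epididymis genes, 9 of 17 haploid germ cell genes and 2 of 68 adipocyte genes, as for 5.83% of tested genes. The adipocyte genes were Acly at -2.69 and Elovl6 at -2.56, and the epididymis genes not lower by as much were Defb22, Spint4, Teddm3 and Wfdc15a. Over the 68 adipocyte genes the median difference of this array to the B6 fat mean was 1.014, against 0.026 over all tested genes. Their median range over the 6 fat arrays was 1.975, against 1.275 over all tested genes and 7.445 over the 28 epididymis genes. Lep was at 15.39, 14.08 and 11.70 on congenic fat replicates 1, 2 and 3, and 14.86, 13.07 and 13.85 on the B6 ones, and Fabp4 at 20.61, 20.14 and 20.45 on congenic fat replicates 1, 2 and 3, and 20.29, 20.14 and 20.03 on the B6 ones. Seminal vesicle genes ran the other way from epididymis genes. Svs4 was at 19.85, 9.96 and 16.19 on congenic fat replicates 1, 2 and 3, and 8.10, 12.17 and 11.46 on the B6 ones. Congenic replicates 1 and 3 were the high arrays for it.

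**Figure D4:**
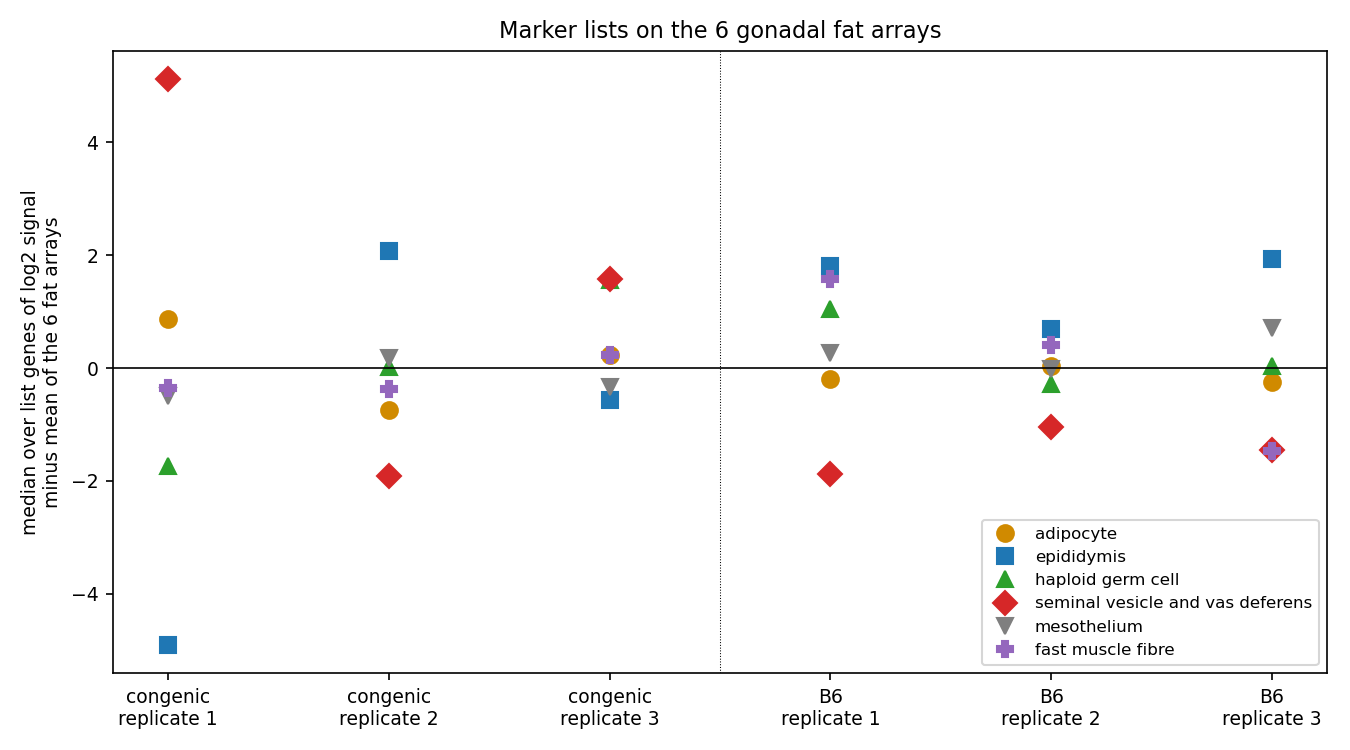
Median over the genes of each list of the log2 signal minus the mean of the 6 gonadal fat arrays, for the congenic arrays (left) and the B6 arrays (right). The epididymis list is at -4.90, the seminal vesicle list at 5.12 and the adipocyte list at 0.88 on congenic replicate 1. The adipocyte list is lowest on congenic replicate 2, at -0.74.

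That array was singled out after its values were seen. Of the 352 fat-enriched genes, 193 (54.8%) lay at least 2 log2 units lower on congenic fat replicate 1 than on the B6 fat arrays. This compares with 5.83% of all tested genes. Another 107 lay within 1 unit or higher. The 352 genes were selected as high on the same B6 fat arrays, which favours lower values on any other array. Among the fat-enriched members of the lists, 24 of 25 epididymis, 8 of 8 haploid germ cell and 1 of 26 adipocyte genes were in the lower set. Mesothelial and positional genes were in both. Krt7, Krt19 and Upk1b were lower there by 2.71, 2.54 and 2.19, and Pax8 and Emx2 by 6.73 and 4.77. Msln, Upk3b, Wt1 and Hoxc8 had differences of 0.93, 0.26, 1.20 and 0.94. With 1 such array this is a description with no test.

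**Figure D5:**
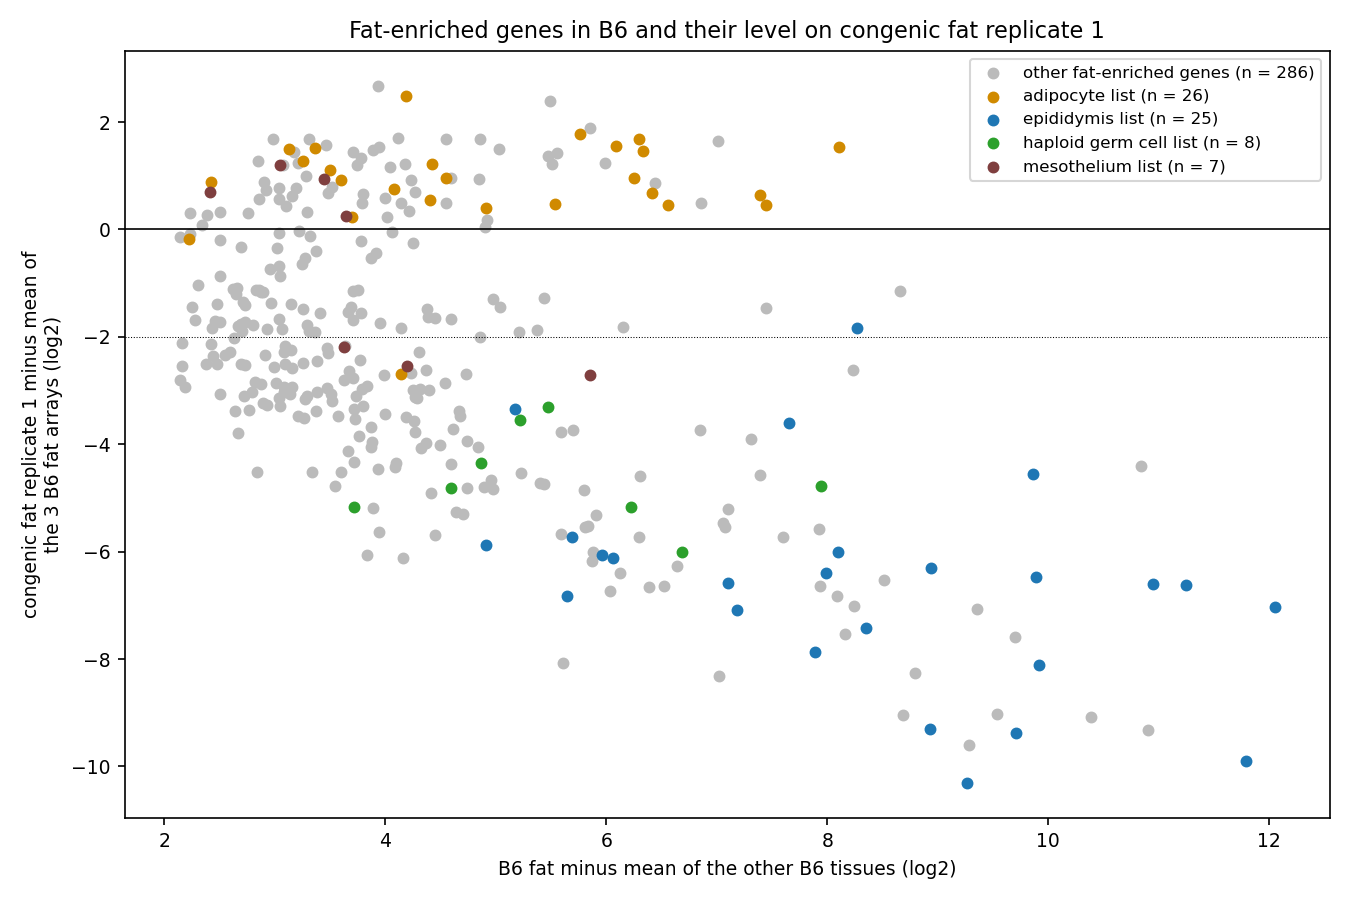
Each point is 1 of the 352 fat-enriched genes, by its difference between B6 fat and the mean of the other B6 tissues (x axis, log2) and the difference of congenic fat replicate 1 to the mean of the 3 B6 fat arrays (y axis, log2). Epididymis and germ cell genes lie low, and 25 of 26 adipocyte genes lie above -1.

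Of the 279 fat-enriched genes on no list, 155 were in the lower set (55.6%, against 5.83% of all tested genes) and 73 within 1 unit or higher. Genes named from both sets were chosen after their values were seen. Tmem45b, a membrane protein gene, was at 15.91, 14.06 and 15.28 in fat and 7.14 to 9.29 (median 8.18) elsewhere. Slc1a5, a glutamine transporter gene, was at 16.78, 17.23 and 16.77, and exceeded gastrocnemius by 4.97. Slc36a2, an amino acid transporter gene, and Ccdc80, a secreted matrix protein gene, exceeded gastrocnemius 28.2-fold and 12.9-fold. Prkar2b, the regulatory subunit of the kinase that triggers lipolysis, and Sult1e1, the estrogen sulfotransferase, were at 14.41, 14.34 and 14.36 and 14.32, 14.77 and 14.55. Mest, an imprinted gene tied to fat pad expansion in mice, was at 16.95, 15.003 and 16.64, and replicate 2 was again the low array. In the lower set were Epcam and Cldn7, epithelial adhesion genes, and Lcn2 and Cdh16, with congenic replicate 1 below the B6 mean by 6.54, 6.26, 6.82 and 6.63.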

How the data were processed

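Each array file lists 32996 probes. Per the file headers, the authors deposited a Signal per probe, which is used as an intensity, and a signal to noise ratio, used as a score. The deposited log2 values of the series matrix equal log2 Signal plus 1 constant per array, with blanks below the detection minimum (column medians 11.37 to 12.12), and were used only to learn this; the array software is not given in the sources used here. Signal was background-corrected by normexp (offset 50), log2-transformed and quantile-normalized over the 12 B6 arrays with limma 3.58.1 in R 4.3.3. Fits used lmFit and eBayes with an intensity trend and Benjamini-Hochberg adjustment at 0.05, and were tested on simulated data. The platform table names 1 gene for 14401 probes, several for 247 and none here for 18348; 14392 symbols were updated through Entrez identifiers. A gene with several probes is given by the one of highest mean signal. Genes named are the 20 most fat-enriched, the 10 lowest, members of the adipocyte and epididymis lists, and up to 4 of each other list by size of difference or at odds with it; others are named as list members with their counts or were chosen after their values were seen. Members and lists were chosen with earlier results of these data known. Congenic brain replicate 2 is outside the named triplicate and entered 1 alternative only. Arrays of 2 tissues that share a title number may come from 1 animal; across probes their deviations from tissue means correlated at 0.00637, 0.00353 and -0.0196. Precision is limited by how few arrays each tissue has. Alternatives covered background, scaling, filter, trend, replicate block and leaving out each array.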

Additional observations from a re-analysis of the deposited data

How the results depend on the processing

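Over 21 alternatives on the B6 arrays, 1035 to 1595 probes were higher in fat than in each tissue, 483 to 763 lower than in each and 387 to 605 fat-enriched. Leaving out 1 array with the filter reapplied gave 387 to 597 fat-enriched probes. The epididymis count of 25 fell to 16 without B6 fat replicate 2 because the reapplied filter tests fewer probes. Holding the tested probes when a fat array is left out was added after that was seen, and gave 25 to 26 epididymis genes and 551 to 605 fat-enriched probes. With the title number as a replicate block the counts were 1501 higher, 600 lower and 576 fat-enriched, and no adipocyte or epididymis call was lost. The strain difference was called for 0 to 1016 probes when a fat array was left out, with 1016 without congenic fat replicate 2 and 3 without congenic fat replicate 3. The adipocyte genes Acss2, Cebpb and Fabp5, not called against the mean of the other tissues as reported, changed sign there. With 1 array left out Acss2 ranged from -0.392 to 0.092, Cebpb from -0.052 to 0.314 and Fabp5 from -0.122 to 0.317, the lower Fabp5 values being -0.021, -0.086, -0.088 and -0.100. Cebpb was called lower in fat under median centring, at -0.612 without background correction (limma, adjusted p = 0.0264) and at -0.621 with normexp (adjusted p = 0.01895). The cause was not tested. Median centring ended the calls of Angptl4, Elovl6, Mgll and Plin4 as higher than each tissue, and leaving out single fat arrays also ended those of Hcar2 and others. The share of calls that were higher in fat was 51.7%, and 46.6% with normexp and median centring.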
